A study of Cricetulus griseus with 4 samples.

Results

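TNFSF10, CASP10, BID, BAD and CASP9 are genes of the core apoptosis machinery that had a named probe on this array: 1 death ligand, 2 initiator caspases and 2 members of the BCL2 family. They were taken by gene symbol, from probes that the platform annotation gives a single symbol, and are 5 of the 347 genes named in that way and 5 of 1152 probes in all. Each has 1 probe, spotted 2 times. The annotation gives their human Entrez Gene identifiers as 8743 for TNFSF10, 843 for CASP10, 637 for BID, 572 for BAD and 842 for CASP9.

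The study set a chromosomally stable cell clone against unstable clones of the same genetic background and asked whether their gene expression differs. RNA of RT210B, the stable clone, was in channel 1 of each of 4 two-channel arrays, and channel 2 held RNA of 2 unstable clones mixed in equal parts. Mixture 1 held clones LS12 and 10-107-9, mixture 2 held clones Fe10-3 and 10-56-11, and each mixture had 2 arrays, numbered as replicates. All the RNA is labelled as Chinese hamster, and no treatment is named in the labels. From general knowledge of clones with these names, they come from a hamster ovary line that carries a human chromosome and was studied for instability after irradiation. RT210B is 1 clone, and the clones pooled in a mixture cannot be told apart. Nothing in the labels says that replicates were separate cultures, so the p-values here measure the spread between arrays, which may be technical.

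Cells die by apoptosis along 2 converging routes. In the death receptor route a ligand such as TNFSF10, also known as TRAIL, binds receptors at the cell surface, which gather and activate the initiator caspases CASP8 and CASP10. In the mitochondrial route, BCL2 family proteins decide whether cytochrome c leaves the mitochondrion, and cytochrome c then assembles the apoptosome, which activates CASP9. BID joins the routes: once cut by an initiator caspase it moves to the mitochondrion. BAD neutralises protective BCL2 proteins unless survival kinases have phosphorylated it. The annotation names human genes. Of the 5 symbols, 4 matched a symbol in the Chinese hamster RefSeq gene table of assembly CriGri-PICRH-1.0, and CASP10 did not. Mice and rats lack a CASP10 gene, and which hamster RNA bound the CASP10 probe was not tested.

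Every value below is a log2 ratio between the channels of an array, averaged over the 2 spots of a probe, less the median of that array's probes. A value of -1 is therefore a 2-fold distance below the array's middle probe. Whether RT210B or the mixture is the numerator was not settled, since titles and descriptions put them in opposite orders and the dyes are not stated. Genes are described as lying on the negative or positive side, never as higher in one pool. The subtracted medians ran from -0.53 to -0.12, and the SD over probes was 1.14 and 1.05 for mixture 1 but 0.80 and 0.47 for mixture 2. The fit gave each gene 1 spread, estimated from all 4 arrays. The standard error (SE) of a gene is therefore the same in both mixtures and is not the spread of the 2 arrays beside it. No array had its channels swapped, so a channel effect and a difference between the pools cannot be told apart. No intensities were used here, so it is unknown how far a spot stood above background. Whether the cells were of a particular type could not be checked either, because 0 of 12 marker genes had a named probe.

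All 5 genes lay on the negative side on both arrays of mixture 1, where 38.9% of all probes did the same, and their mixture 1 means stayed negative under every alternative run. The spots of TNFSF10, CASP10, BID and BAD differed by more than the median over all probes. The share was not counted among probes with like spot differences. In mixture 2 they divided. TNFSF10, CASP10 and CASP9 were again negative on both arrays, which made them negative on all 4, as were 19.9% of probes. BAD was positive on both arrays of mixture 2, and BID was positive on one and slightly negative on the other. BID and CASP10 passed the test in mixture 1, while TNFSF10, CASP10 and CASP9 passed it in the mean of both mixtures.

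**Figure D1:**
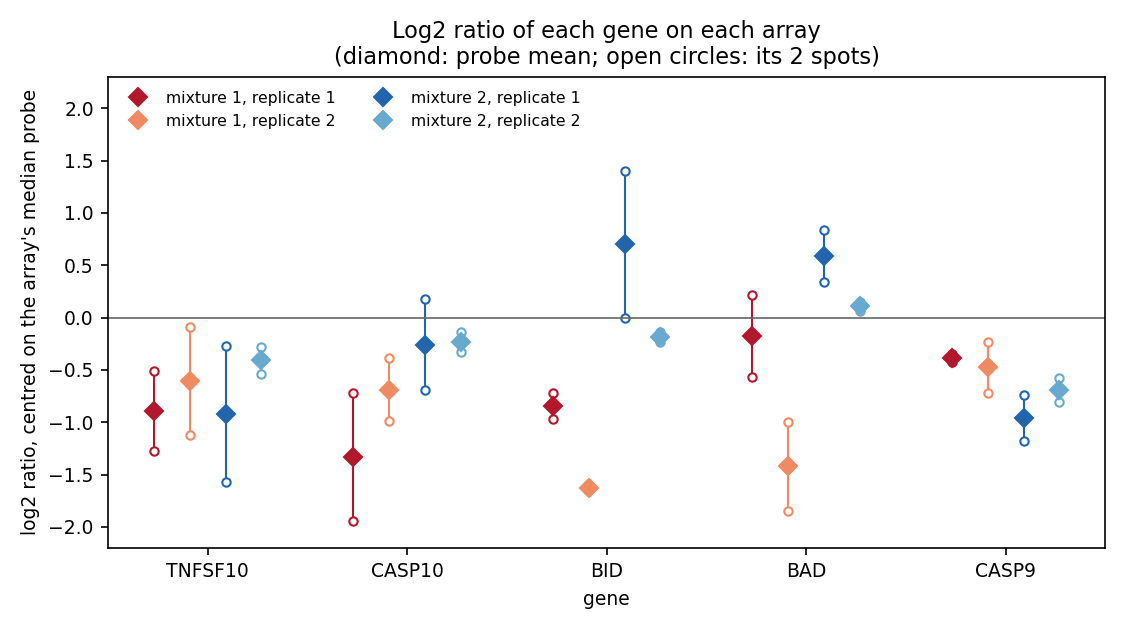
Centred log2 ratio (vertical axis) of the 5 genes on the 4 arrays; diamonds are probe means and open circles are the 2 spots of the probe, joined by a line. All 10 diamonds of mixture 1 are below 0, while in mixture 2 both diamonds of BAD and 1 of BID are above it.

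TNFSF10, the secreted or membrane-bound ligand of the death receptors, had values of -0.89 and -0.60 on the arrays of mixture 1. On the arrays of mixture 2 it had values of -0.92 and -0.41. The mixtures overlapped, and all 4 values were negative. The mean log2 ratio was -0.75 (SE 0.300, n = 2 arrays) in mixture 1, with a limma adjusted p of 0.0724, and -0.67 (SE 0.300, n = 2) in mixture 2, with a limma adjusted p of 0.256. Neither passed. In the mean of both mixtures TNFSF10 passed the test, at -0.71 (SE 0.212, n = 4, limma adjusted p 0.0292), or 1.63-fold from the middle probe. Its spots agreed poorly, at -1.58 and -0.27 on replicate 1 of mixture 2, and at -0.09 and -1.12 on replicate 2 of mixture 1. The mean difference between its spots over the arrays was 0.841, at least as large as that of 87.6% of probes, against a median of 0.372 over all probes. Once a loess trend on the spot difference was taken out of each array, TNFSF10 lay at -0.30 in the mean of both mixtures (limma adjusted p 0.349).

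The mean of TNFSF10 over both mixtures lost its call with an array left out in 3 of 4 cases. The limma adjusted p was 0.0525 when replicate 1 of mixture 1 was left out (log2 -0.64). It was 0.202 (-0.58) with replicate 1 of mixture 2 left out, and 0.0514 (-0.84) with its replicate 2 left out. From the second spots alone TNFSF10 passed in mixture 1, at -1.24 (limma adjusted p 0.0293), and from the first spots alone it lay at -0.32 there (limma adjusted p 0.501).

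CASP10 is the initiator caspase that death receptors recruit beside CASP8. On the arrays of mixture 1 it had values of -1.33 and -0.69, and on those of mixture 2 of -0.26 and -0.23. Both values of mixture 1 were below both of mixture 2, as for 26.0% of all probes, with a gap of 0.432 between the mixtures. CASP10 passed in mixture 1 with a mean of -1.01 (SE 0.303, n = 2 arrays, limma adjusted p 0.0268), 2.01-fold from the middle probe. In mixture 2 the mean was -0.24 (SE 0.303, n = 2, limma adjusted p 0.646). The mean of both was -0.63 (SE 0.214, n = 4) and passed narrowly, at a limma adjusted p of 0.0462.

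The difference of CASP10 between the mixtures was -0.76 (95% confidence interval -1.74 to 0.21), with a limma adjusted p of 0.286. The call in mixture 1 was lost without replicate 1 of mixture 1 (log2 -0.69, limma adjusted p 0.224), and the value in the mean of both mixtures then moved to -0.47 (0.165). The mean also lost its call without replicate 1 (limma adjusted p 0.167) or replicate 2 (0.143) of mixture 2. On the array with its lowest value, replicate 1 of mixture 1, the spots of CASP10 lay at -1.94 and -0.72. With the trend on the spot difference removed CASP10 did not pass in mixture 1 (-0.63, limma adjusted p 0.166), nor from either spot alone (0.0655 and 0.0554).

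BID carries the death signal from initiator caspases to the mitochondrion. It had values of -0.85 and -1.63 on the arrays of mixture 1, the lowest mean of the 5 genes there. In mixture 2 its values were 0.70 and -0.19. The arrays of mixture 1 were both below those of mixture 2, as for 26.0% of all probes. The gap between the mixtures, 0.660, was the widest of the 5 genes. In mixture 1 the mean was -1.24 (SE 0.346, n = 2 arrays), 2.36-fold from the middle probe, and it passed at a limma adjusted p of 0.0213. In mixture 1 24.8% of probes lay farther from the middle than BID. In mixture 2 the mean was 0.26 (SE 0.346, n = 2, limma adjusted p 0.682).

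The spots of BID agreed closely in mixture 1, at -0.97 and -0.72 on replicate 1 and at -1.61 and -1.65 on replicate 2. On replicate 1 of mixture 2 they lay at -0.0044 and 1.40, a difference of 1.41 that was at least as large as that of 97.0% of probes on that array. Of its spots in mixture 2, that 1 spot was the only one above 0. Without replicate 1 of mixture 2 the mean of that mixture was -0.19, from the first spots alone it was -0.10, and with no centring of the arrays it was -0.23, so its sign in mixture 2 is not settled. In mixture 1 the call was lost without replicate 2 of mixture 1 (log2 -0.85, limma adjusted p 0.118). The value there was larger in size, -1.59, with the trend on the spot difference removed, but did not pass (limma adjusted p 0.0546).

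BAD, a partner of BID in the BCL2 family that acts by binding protective members, had values of -0.18 and -1.42 on the arrays of mixture 1. On those of mixture 2 it had values of 0.59 and 0.11. It was the one gene of the 5 that was negative on both arrays of mixture 1 and positive on both of mixture 2, as were 4.95% of all probes. The arrays of mixture 1 lay 1.25 apart, a gap at least as wide as that of 85.8% of probes. The mean of -0.80 (SE 0.362, n = 2 arrays) did not pass, at a limma adjusted p of 0.105. In mixture 2 the mean was 0.35 (SE 0.362, n = 2, limma adjusted p 0.578), and the mean of both mixtures was -0.22 (SE 0.256, n = 4, limma adjusted p 0.509). Without replicate 1 of mixture 1 BAD lay at -1.42 in mixture 1 and from replicate 1 alone at -0.18, each value resting on 1 array. Without centring its mean in mixture 2 was -0.14, so the positive side there depends on the subtracted median.

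CASP9 is the initiator caspase of the apoptosome. Its values were -0.39 and -0.47 on the arrays of mixture 1, the highest mean of the 5 genes there, and -0.96 and -0.69 on those of mixture 2, the lowest. It was the only gene of the 5 whose arrays of mixture 2 were both below those of mixture 1, with a gap of 0.221. The share of all probes with that order was not counted, and the difference between the mixtures did not pass (limma adjusted p 0.538). Replicates agreed closely, 0.0885 apart in mixture 1 and 0.269 apart in mixture 2, as did its spots, with a mean difference of 0.307 against the median of 0.372 over all probes. In mixture 1 the mean was -0.43 (SE 0.287, n = 2 arrays, limma adjusted p 0.246), and in mixture 2 it was -0.83 (SE 0.287, n = 2, limma adjusted p 0.249), 1.78-fold from the middle probe. In the mean of both mixtures CASP9 passed, at -0.63 (SE 0.203, n = 4, limma adjusted p 0.0379).

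With arrays scaled to 1 spread, which widens the narrow arrays of mixture 2, CASP9 passed in mixture 2 at -1.14 (limma adjusted p 0.0319). The call in the mean of both mixtures was lost without replicate 2 of mixture 1 (log2 -0.61, limma adjusted p 0.0612), replicate 1 of mixture 2 (-0.56, 0.216) or replicate 2 of mixture 2 (-0.70, 0.105). It stood without replicate 1 of mixture 1. CASP9 was the one gene of the 5 whose spots differed by less than the median. Among such probes alone, after new centring on them, it lay at -0.99 in mixture 1 and passed (limma adjusted p 0.0191). With centring on all probes its mean there was -0.43. The middle of the probes with close spots thus lay on the positive side of the middle of all probes.

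Set side by side in mixture 1, the means ran upward from BID through CASP10, BAD and TNFSF10 to CASP9. No gene in that order differed from the next by more than 0.318, against combined standard errors of 0.415 to 0.472, so the order of neighbours is not resolved. Of the 5 genes 2 passed, both on the negative side, with the limma threshold set at 0.05 after Benjamini-Hochberg adjustment over all probes. On that side 18.8% of probes passed, and on either side 43.1%, so the count of 2 is not a result about these genes as a group. The median of the 5 was -0.80, against -0.03 over all probes. Scaling the arrays to 1 spread left 0 of the 5 past the threshold, where 20.1% of all probes passed, and so did removing the trend on the spot difference, where 17.0% did. With 1 array of mixture 1 left out, each mean rested on the array that remained. Without replicate 2 CASP10 lay at -1.33, BID at -0.85 and BAD at -0.18. Without replicate 1 they lay at -0.69, -1.63 and -1.42.

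In mixture 2 the order ran from CASP9 through TNFSF10, CASP10 and BID to BAD. CASP10 and BID were 0.501 apart, slightly more than their combined standard error of 0.460, and the other neighbours were closer than theirs. None of the 5 passed in limma, where 0% of probes passed on the negative side. At an unadjusted p under 0.05 there was 1 gene of the 5, CASP9, and 226 probes, or 19.6%. That fit took the spread of each gene from the arrays of both mixtures. In a separate fit of the 2 mixture 2 arrays, with the same means, 9.81% of all probes passed. Of the 5 genes 0 passed there, with CASP9 at a limma adjusted p of 0.0783. The 0% is therefore a result of the shared spread as well as of the mixture 2 values. The median of the 5 was -0.24, against -0.0030 over all probes. The count depended on the scale of the arrays: CASP9 and TNFSF10 passed with the arrays scaled to 1 spread (TNFSF10 at -0.86, limma adjusted p 0.0485), and both passed without centring, at -1.31 and -1.15. In these settings 22.7% and 17.9% of all probes passed.

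**Figure D2:**
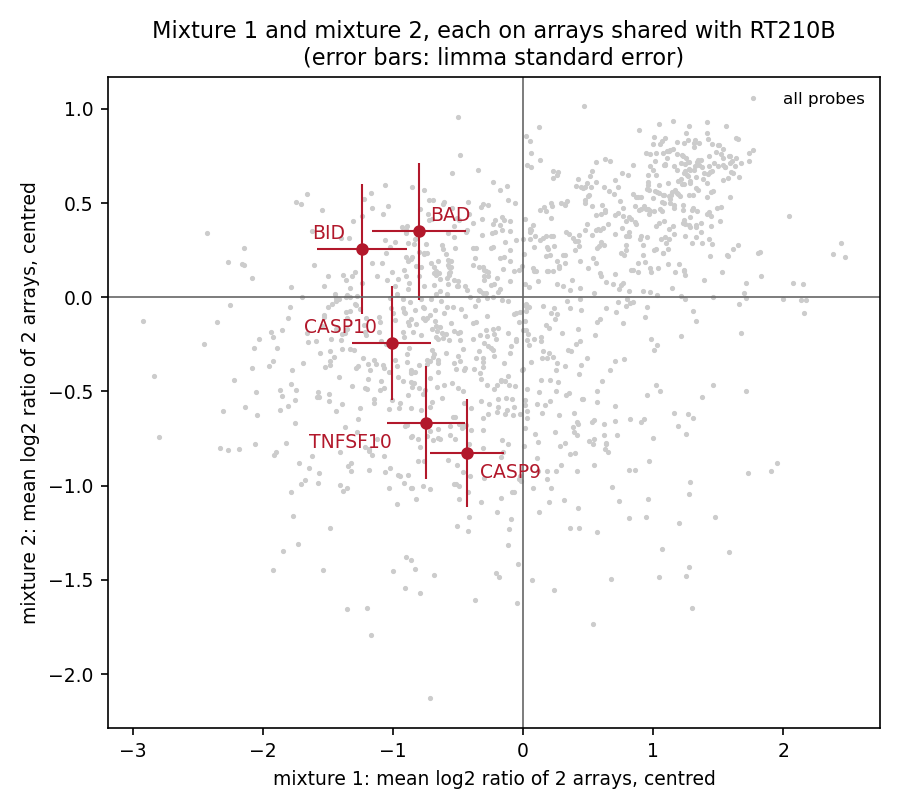
Mean centred log2 ratio in mixture 1 (horizontal axis) and mixture 2 (vertical axis) for all 1152 probes (grey) and the 5 genes (red, bars are limma standard errors). The 5 genes are all left of 0; TNFSF10, CASP10 and CASP9 are also below 0 for mixture 2, and BID and BAD are above it.

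In the mean of both mixtures the range narrowed to between -0.71 for TNFSF10 and -0.22 for BAD, and the largest step between neighbours in the order was 0.267. The median of the 5 was -0.63, against -0.10 over all probes. TNFSF10, CASP9 and CASP10 passed in limma, 3 of 5, where 17.0% of probes passed on the negative side and 38.7% on either. BID did not pass (-0.49, SE 0.245, n = 4, limma adjusted p 0.142). The 2 mixtures share RT210B as the control on each array. The labels do not say whether its RNA came from 1 culture. It is therefore unknown whether the mean contains the spread between RT210B cultures. With either array of mixture 2 left out, 0 of the 5 passed, while 19.0% of probes did without replicate 1 and 28.2% without replicate 2. Leaving out replicate 1 of mixture 1 left BID (-0.69, limma adjusted p 0.0362) and CASP9 past the threshold (41.6% of probes), and leaving out replicate 2 of that mixture left TNFSF10 and CASP10 (43.8%). From the first spots alone 0 of the 5 and 30.9% of probes passed, and with the trend on the spot difference removed 0 of the 5 and 2.69% of probes did.

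**Figure D3:**
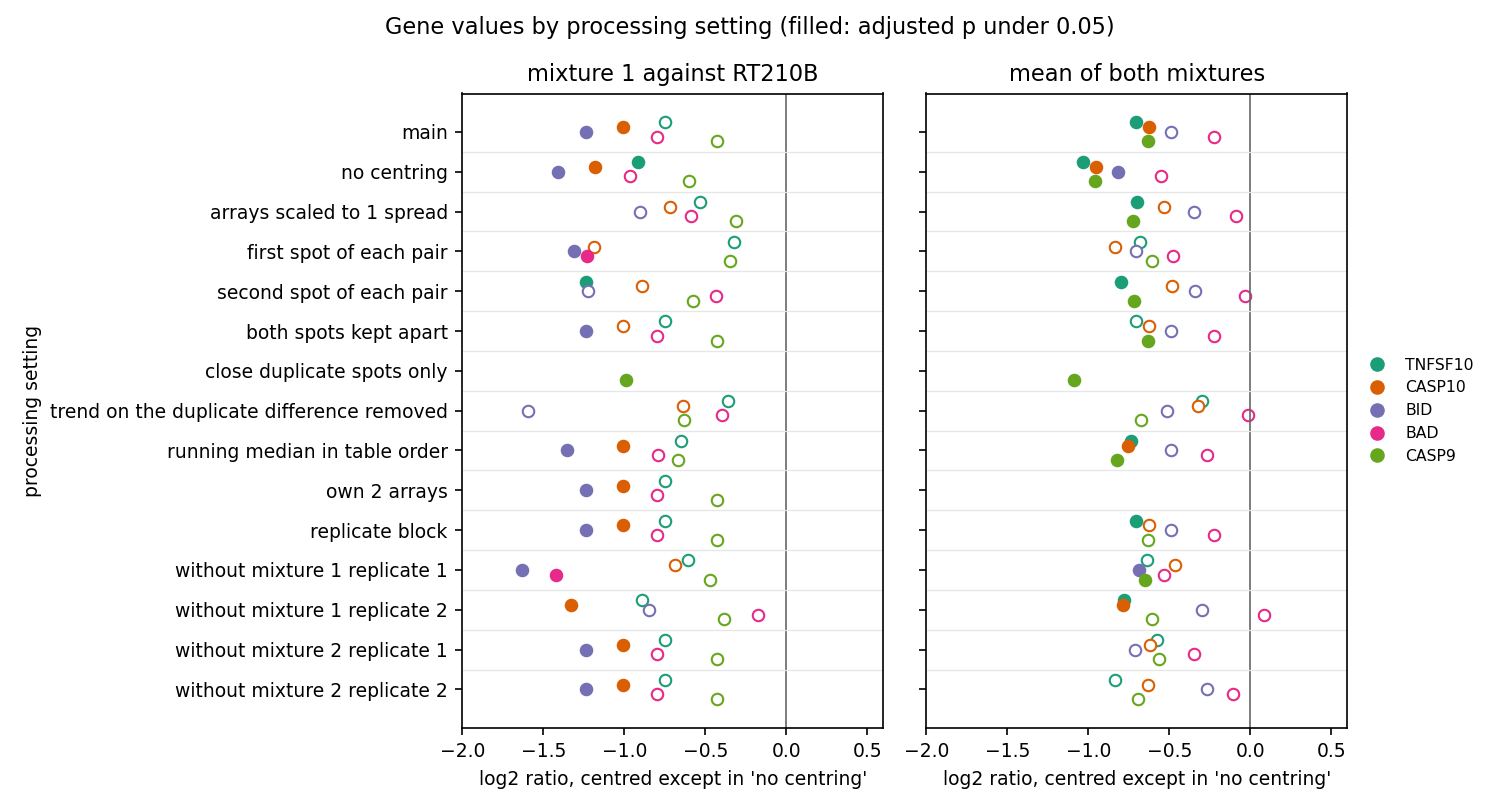
Log2 ratio of the 5 genes (horizontal axis) under each way of processing the values (vertical axis), for mixture 1 on the left and for the mean of both mixtures on the right; filled points had a limma adjusted p under 0.05. All points but 1, that of BAD in the mean without replicate 2 of mixture 1, stay left of 0, while which genes are filled changes between settings.

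Whether a gene differed between the mixtures was tested directly as mixture 1 minus mixture 2. The largest difference was that of BID, -1.49 (SE 0.490, 95% confidence interval -2.61 to -0.38), with means of -1.24 and 0.26. Its unadjusted limma p was 0.0143 and its adjusted p 0.133. BAD followed at -1.15 (SE 0.512, 95% confidence interval -2.31 to 0.02, limma adjusted p 0.212). The difference of CASP9 was in the other direction, 0.40 (95% confidence interval -0.52 to 1.32, limma adjusted p 0.538), and that of TNFSF10 was -0.08 (95% confidence interval -1.04 to 0.88, limma adjusted p 0.912).

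None of the 5 passed, nor did any of the 1152 probes, so that 0% of probes passed on the negative side in limma, while 275 had an unadjusted p under 0.05, BID among them. Without replicate 1 of mixture 1, where that mixture rests on 1 array assumed to vary like the others, BID (-1.89, limma adjusted p 0.0139) and BAD (-1.77, limma adjusted p 0.0254) passed, as did 8.25% of probes. CASP10, BID and BAD had both arrays of mixture 1 below both of mixture 2, as did 26.0% of all probes.

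Over the 4 arrays some of the 5 genes lay close together. BID and BAD differed by a root mean square of 0.385 (log2), and 1.04% of probes were nearer to BID than BAD was. TNFSF10 and CASP9 differed by 0.298, and 2.00% of probes were nearer to TNFSF10 than CASP9 was. CASP10 was 0.411 from TNFSF10, and 6.69% of probes were nearer to TNFSF10 than CASP10 was. From CASP9 it was 0.642 away and from BID 0.713. BID and CASP9 were the least alike of the 5, at 1.07, yet only 39.2% of probes were nearer to BID than CASP9 was. These distances describe 4 arrays and carry no test.

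Among the named genes, those nearest to TNFSF10 over the 4 arrays were MAP2K6, a kinase that activates p38, at a root mean square difference of 0.139, PHF1 at 0.198 and NSMCE3 at 0.213. The median probe was 0.953 from TNFSF10. MAP2K6 was also the nearest to CASP9 (0.216), before PBX3 (0.225) and LRRC32 (0.240). Nearest to CASP10 were the integrin gene ITGA7 (0.119), the transcription factor gene BACH2 (0.146) and LRRC15 (0.156). Nearest to BID were NFIX (0.299), the kinase gene STK17B (0.317) and TFDP2 (0.320), where the median probe was 1.21 away. BAD was nearest to the kinase gene NEK4 (0.216), the topoisomerase gene TOP3B (0.250) and the cadherin gene CDH2 (0.259).

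The rest of the pathway was sparsely covered. Of 209 entries in 6 lists of apoptosis genes and their regulators, 18 had a probe with 1 symbol, the 5 genes above and 13 others. Of these 13, 5 passed on the positive side and 1 on the negative side in mixture 1, where 24.4% and 18.8% of probes did in limma. In the mean of both mixtures 4 passed on the positive side, where 21.7% of probes did, and 1 on the negative side. In limma 0 of the 13 passed in mixture 2 and 0 between the mixtures, where 4 and 5 had an unadjusted p under 0.05, as had 19.6% and 23.9% of all probes.

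DAXX, an adaptor of death receptor signalling, lay at -0.22 in mixture 1 and -0.20 in mixture 2. GZMB, the granzyme of killer lymphocytes that cuts BID and caspases, lay at -0.70 in mixture 1 (limma adjusted p 0.113) and 0.42 in mixture 2. Neither passed in any comparison. Of the kinases that act on BAD, RPS6KA1, which phosphorylates it downstream of ERK, had values of 1.21 and 2.43 on the arrays of mixture 1 and of -0.15 and 0.63 on those of mixture 2. It passed in the mean of both mixtures, at 1.03 (SE 0.265, n = 4, limma adjusted p 0.0171), and lost that call without replicate 2 of mixture 2 (0.84, limma adjusted p 0.0537). PDPK1, the kinase that activates AKT, lay at -0.23 in mixture 1 and 0.27 in mixture 2 and did not pass.

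Among the transcriptional and stress regulators, IRF1, an interferon-responsive activator, had values of 1.17 and 1.83 in mixture 1 and of 0.80 and 0.59 in mixture 2. It passed in the mean of both at 1.10 (SE 0.216, n = 4, limma adjusted p 0.00999). FOXO3, a transcription factor that can switch on death genes, passed on the negative side in mixture 1 (-1.53, SE 0.454, n = 2, limma adjusted p 0.0255) and lay at -0.09 in mixture 2. Without replicate 1 of mixture 1 FOXO3 lay at -0.79 there and did not pass (limma adjusted p 0.158). MAP2K6 was negative on all 4 arrays, between -0.85 and -0.51, and passed in the mean of both at -0.70 (limma adjusted p 0.0264), but not without replicate 1 of mixture 1 (limma adjusted p 0.0544) or replicates 1 (0.149) or 2 (0.0787) of mixture 2. ATM, the damage kinase, MAP2K4 and the p38 kinase MAPK13 did not pass in any of the 4 comparisons in limma. In a separate fit of the 2 mixture 2 arrays, which changes only the spread, MAPK13 passed there at the same value, -1.22 (limma adjusted p 0.00445). In that fit 9.81% of all probes passed.

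The 3 measured of 15 listed chaperones that bind apoptosis proteins were all positive in mixture 1. They passed there, where 24.4% of all probes passed on the positive side. HSP90AA1 lay at 2.45 (limma adjusted p 0.00610), DNAJB1 at 1.59 (0.00821) and HSPA9 at 1.72 (0.0193) there. HSPA9 had 2.78 and 0.65 on the arrays and did not pass without replicate 1 (limma adjusted p 0.254). Of the 3, only DNAJB1 was positive on both arrays of mixture 2, at 0.82 and 0.61.

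**Figure D4:**
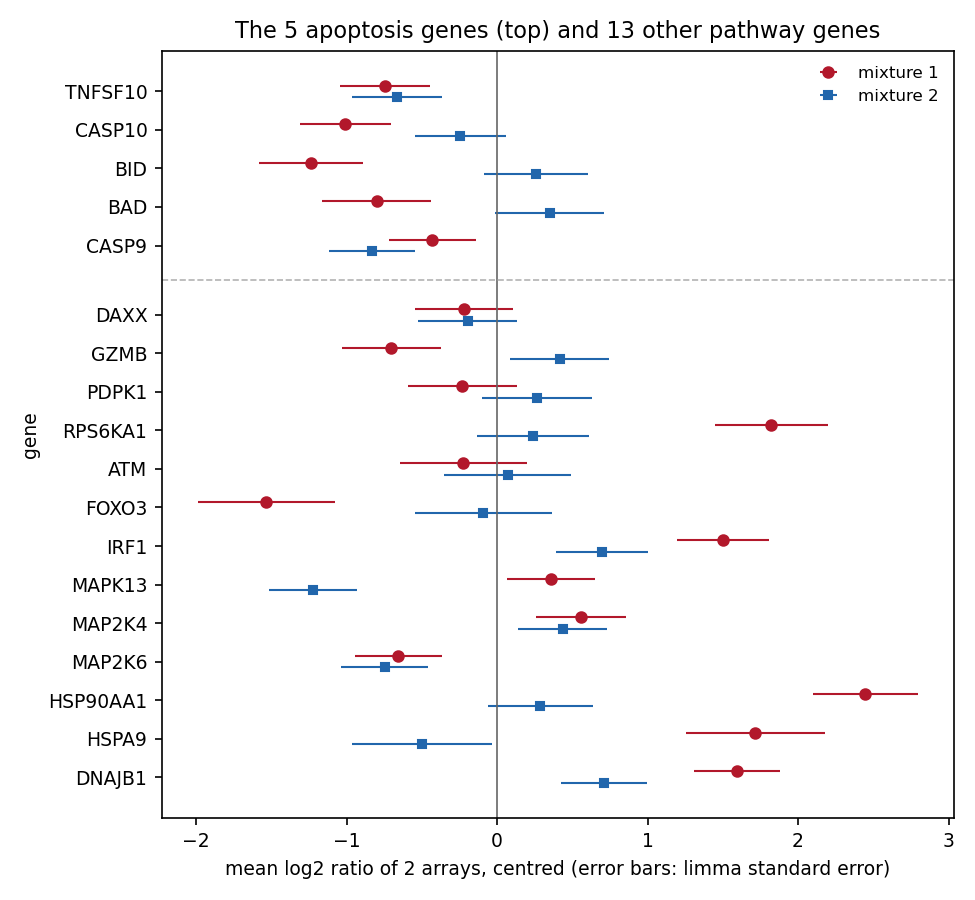
Mean centred log2 ratio (horizontal axis, bars are limma standard errors) of the 5 apoptosis genes and 13 other pathway genes in mixture 1 (red circles) and mixture 2 (blue squares), 2 arrays each. The 5 apoptosis genes are all below 0 in mixture 1, while RPS6KA1, IRF1 and the 3 chaperone genes lie above 1.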

How the data were processed

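The deposited values are log2 ratios of the 2 channels, 1 for each of 2304 spots on 4 arrays. Per the labels, normalization factors of 3.8 and 1.169 belong to mixture 1 replicate 2 and mixture 2 replicate 1; what they scaled is unknown, and for the scanner, spot filtering and background handling the upstream steps are not stated in the labels. Adjacent spots were averaged to 1152 probes, 350 of them with 1 symbol in the platform annotation, and each array was centred on its median. All probes were fitted with limma 3.58.1 in R 4.3.3 (lmFit, eBayes, 1 mean per mixture, 2 residual and 6.69 prior degrees of freedom), with Benjamini-Hochberg adjustment over all probes and a threshold of 0.05. Precision is limited by the number of arrays. The fit was run on simulated data with independent noise and changes in mixture 1 only. Those data held no channel effect and no trend with the spot difference, so they cannot check the calls against either.

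Genes, lists and tests were chosen with earlier results of these data known. All 5 genes are named, called or not, with every measured gene of the 6 lists and the 3 named genes nearest to each of the 5. Alternatives were no centring, 1 spread, single spots, spots kept apart with limma's duplicate correlation, close spots only, a loess trend on the spot difference removed, a running median over 51 probes in table order, separate fits, a replicate block, and each array left out. With an array left out its mixture rested on 1 array, whose spread was taken from the arrays of the other mixture.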

Additional observations from a re-analysis of the deposited data

Results flagged for a closer look

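BAD was negative on both arrays of mixture 1 and positive on both of mixture 2, a pattern it shared with 4.95% of all probes, GZMB and NFIX among them. Mixture 1 minus mixture 2 was -1.15 (SE 0.512), with an unadjusted limma p of 0.0527 and an adjusted p of 0.212, so the difference did not pass its own test. The gap between the nearest arrays of the mixtures was 0.284, smaller than the 1.25 between the arrays of mixture 1.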

How the results depend on the processing

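Of 254 values of single genes under the alternatives, 199 kept their sign and their side of the threshold, 31 no longer passed, 13 newly passed and 11 changed sign. Some of these values repeat each other. For each mixture, the separate fit and the fits without an array of the other mixture gave identical results. In mixture 1 the count of genes passing, 2 of 5, became 3 without centring (TNFSF10 added, at -0.92, limma adjusted p 0.0335), where 45.5% of all probes passed. The count was 0 with 1 spread (20.1% of probes) or with the trend on the spot difference removed (17.0%). It was 1 of 5 from the second spots (33.1%) or with both spots kept apart (43.2%). With close spots only, CASP9 was the 1 gene tested and it passed, as did 47.2% of the 576 probes tested. Which genes passed also changed with single arrays left out. In mixture 2 the count of 0 became 2 without centring, where 17.9% of all probes passed, and with 1 spread, where 22.7% did. In the mean of both mixtures the count of 3 became 4 without centring (BID added, at -0.82, limma adjusted p 0.0269), where 48.4% of all probes passed. The count was 0 from the first spots (30.9% of probes) or with the trend removed (2.69%), and 1 of 5 with both spots kept apart (40.8%). With close spots only, CASP9 was again the 1 gene tested and passed, as did 44.6% of those probes. Which genes passed in the mean, and between the mixtures, also changed with single arrays left out.

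The sign changed for values near 0. BID in mixture 2 became -0.23 without centring, -0.10 from the first spots and between -0.19 and 0.70 with single arrays left out, and BAD there became -0.14 without centring. The mean of both mixtures for BAD ran from -0.54 to 0.087 with single arrays left out. The difference between mixtures for TNFSF10 became 0.23 without centring, 0.33 with 1 spread, 0.72 from the first spots, 0.18 with the running median, and -0.34 to 0.18 with single arrays left out. The cause was not tested.

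Replicate numbers were shared between mixtures, and the deviations of same-numbered arrays correlated at -0.098 over probes. That value shows no deviation shared by number, but it cannot tell whether the arrays were paired. With the replicate number as a block, the mean of both mixtures had 1 passing gene, TNFSF10, in place of 3, where 37.2% of all probes passed.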

Other observations

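Other genes with a link to cell death were on the array but outside the lists, and were picked by name for this section, STK17B after its values were known. TNFSF11, the ligand RANKL of the same TNF superfamily as TNFSF10, was positive on all 4 arrays (0.98 and 1.59 in mixture 1, 0.90 and 0.45 in mixture 2) and passed in the mean of both mixtures at 0.98 (SE 0.220, limma adjusted p 0.0120), on the side opposite to TNFSF10, a call lost without replicate 1 of mixture 2 (limma adjusted p 0.0556). PDCD10 passed on the positive side in mixture 1 (1.24, limma adjusted p 0.0125), but not without replicate 2 of mixture 1 (1.00, 0.0638). STK17B, a kinase related to the death-associated protein kinases, passed on the negative side in mixture 1 (-1.06, limma adjusted p 0.0291) and lay at 0.30 in mixture 2; without replicate 1 of mixture 1 it did not pass in mixture 1 (limma adjusted p 0.0590). CAPN1, a calpain, had values of 0.92 and -0.51 in mixture 1 and of -1.38 and -0.79 in mixture 2, and did not pass in limma with all 4 arrays. In the separate fit of the 2 mixture 2 arrays CAPN1 passed at the same mean, -1.09 (limma adjusted p 0.0161), as did 9.81% of all probes. TANK, an adaptor of NF-kappaB signalling, lay between 0.16 and 0.54 on the 4 arrays and did not pass.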
